A study of Mus musculus with 68 samples.

Results

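The nuclear-encoded subunits of the oxidative phosphorylation complexes were followed in mouse lung RNA. The members are the entries of the gene count table whose symbols begin with Nduf, Sdha, Sdhb, Sdhc, Sdhd, Uqcr, Cox4, Cox5, Cox6, Cox7, Cox8 or Atp5. The rule gave 94 of 23893 entries. They comprise 43 entries for complex I (36 subunits and 7 assembly factors), 6 for complex II (4 subunits and 2 assembly factors), 8 for complex III, 20 for complex IV and 17 for complex V. Ndufa4, which is now placed in complex IV, and its paralog Ndufa4l2 were counted there, and Atp5s and Atp5sl were counted with complex V but not as subunits. A low-count filter passed 92 members. The other two, Cox7b2 and Cox8c, are testis isoforms. The mitochondrially encoded subunits lie outside the rule. So do nuclear-encoded subunits with other symbols. Among them are Cyc1 of complex III, listed below with the electron carriers, and Usmg5 and 2010107E04Rik, listed with the ATP synthase partners.

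The study compared chromatin accessibility and gene expression in lungs of 2 inbred strains that breathed clean air or 1,3-butadiene (BD), a volatile industrial chemical and carcinogen. All animals were wild-type males, either C57BL/6J, a standard laboratory strain, or CAST/EiJ, a wild-derived strain of another mouse subspecies. BD was given for 6 hours a day on weekdays over 2 weeks. Polyadenylated RNA was sequenced from 5 C57BL/6J lungs in clean air (titles RNA_3 to RNA_6 and RNA_106, called by their numbers where these are under 100), 6 C57BL/6J lungs after BD (13 to 18), 7 CAST/EiJ lungs in clean air (1, 2 and RNA_101 to RNA_105) and 6 CAST/EiJ lungs after BD (7 to 12). The labels do not say what the numbers over 100 stand for, give no dose or age, and do not state that each library is 1 animal, so p-values measure the spread between these libraries.

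Oxidative phosphorylation passes electrons from NADH through complex I, or from succinate through complex II, to ubiquinone, then through complex III and cytochrome c to complex IV, where oxygen is reduced. Complexes I, III and IV pump protons, and complex V, the ATP synthase, uses the proton gradient to make ATP. Complex II is also an enzyme of the tricarboxylic acid cycle, and it is the only complex made wholly from nuclear genes. In lung, alveolar type 2 cells are rich in mitochondria, and several complex IV subunits have separate isoforms in heart and skeletal muscle or in lung.

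Library totals ran from 10597990 to 50001571 counts. Values below are in CPM, counts scaled to a library total of 1000000 after TMM normalization. Number 8, labelled CAST/EiJ BD, went against its label: of 2649 genes whose strain ranges were apart in the other 23 libraries, it lay within the C57BL/6J range for 2116 (79.9%) and within the CAST/EiJ range for 77 (2.91%). It was left out of the tests, which leaves 5 CAST/EiJ BD libraries, and its values stand apart below. Alveolar type 2 markers summed to 13360 to 16697 CPM in clean-air C57BL/6J and 15896 to 25974 CPM in clean-air CAST/EiJ, and 3 of 5 were called higher in CAST/EiJ there (Sftpa1 log2 1.00, Sftpb 0.81 and Sftpc 0.44). In the same contrast 6 of 8 smooth muscle and pericyte markers were higher (Acta2 1.01, Myh11 1.07) and 1 lower, with sums of 958 to 1070 CPM in C57BL/6J and 1269 to 2510 CPM in CAST/EiJ. Of 4 T cell markers 3 were lower (Cd3e -3.29), with sums of 17.03 to 27.5 CPM against 6.02 to 9.96 CPM. The libraries also held varying amounts of muscle RNA. All 9 cardiac markers were above 0 in every library, and their summed level was 761 to 2490 CPM in clean-air C57BL/6J, 582 to 1703 after BD, 784 to 3434 in clean-air CAST/EiJ and 385 to 3715 in CAST/EiJ after BD. All 8 skeletal muscle markers were also above 0 throughout, summing to between 15.7 and 2456 CPM. Macrophage markers summed to 1731 to 4624 CPM in CAST/EiJ and 608 to 970 CPM in C57BL/6J over both exposures. In each exposure 3 of 5 were called higher in CAST/EiJ and 1, Siglec5, lower (log2 -0.73 in clean air and -0.83 under BD). The part of these marker shifts in the strain differences was not tested. In whole lung, a change in the share of a cell type and a change of RNA per cell cannot be told apart.

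The first comparison asked how the strains differ without exposure. In clean air most members were higher in CAST/EiJ: 74 of 92 passed as higher and 4 as lower by edgeR's quasi-likelihood test with Benjamini-Hochberg adjustment over all genes tested (adjusted p under 0.05), against 29.4% of all genes higher and 31% lower. The median log2 difference over the 80 subunits tested was 0.48, where that over all genes was 0.00. Cytosolic ribosomal protein genes were also higher, by a median of 0.40, and relative to them the subunits' median was 0.08 and that of complex II turned to -0.05 (0.17 for numbers 1 and 2 against 3 to 6). CPM ranges of the strains did not overlap for 41 members, 40 of them with CAST/EiJ above (14.7% of all genes) and 1 below (17.2%).

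Complex I had 37 of 43 members higher and 1 lower, with a median log2 difference of 0.44. The accessory subunit Ndufs5 had the smallest p of the complex. It was at 15.7, 15.2, 13.2 and 15.5 CPM in C57BL/6J clean-air numbers 3 to 6 and 18.6 CPM in RNA_106, and in CAST/EiJ clean air it ran from 24.2 to 31.4 CPM with a median of 28.5 CPM. Every CAST/EiJ library lay above every C57BL/6J library (1.79-fold, log2 0.84 ± 0.09 (SE), adjusted p = 3.5e-08). Ndufc1 and Ndufb6, accessory subunits of the membrane arm, were higher by log2 0.93 ± 0.12 and 0.86 ± 0.11 (SE), also without overlap. The assembly factor Ndufaf7, a methyltransferase, was the 1 lower member, by a small amount (19.8 ± 1.44 CPM (SD, n = 7) against 22.3 ± 2.08 CPM (SD, n = 5), log2 -0.17 ± 0.07, adjusted p = 0.0357), and its ranges overlapped. Its call was lost in 16 of 32 alternative settings.

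All 6 members of complex II were higher, with the narrowest range of differences. The flavoprotein subunit Sdha was at 243, 217, 208 and 224 CPM in C57BL/6J clean-air numbers 3 to 6 and 224 CPM in RNA_106, and in CAST/EiJ it ran from 262 to 292 CPM with a median of 281 CPM. The groups did not overlap, although the difference was small (1.26-fold, log2 0.33 ± 0.06 (SE), adjusted p = 3.74e-05). Sdhb, the iron-sulfur subunit, was 90.2 ± 5.33 CPM (SD, n = 7) against 64.4 ± 8.21 CPM (SD, n = 5) (log2 0.48 ± 0.09). The membrane anchors Sdhc and Sdhd were higher by log2 0.27 ± 0.08 and 0.37 ± 0.10, with overlapping ranges.

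Complex III had 7 of 8 members higher, with a median of 0.62 (0.57 for numbers 1 and 2 against 3 to 6). Uqcrc1, a core protein of the complex, was at 84.9, 84.7, 89.5 and 96.9 CPM in C57BL/6J clean-air numbers 3 to 6 and 97.2 CPM in RNA_106. In CAST/EiJ it ran from 127 to 192 CPM with a median of 147 CPM, with no overlap (1.65-fold, log2 0.72 ± 0.10 (SE), adjusted p = 1.72e-06). Its partner Uqcrc2 was 161 ± 9.59 CPM (SD, n = 7) against 112 ± 12.8 CPM (SD, n = 5) (log2 0.52 ± 0.08). The member that was not called was Uqcrb, a ubiquinone-binding subunit, at log2 -0.03 ± 0.11.

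Complex IV was the most uneven, with 10 of 18 tested members higher and 2 lower. Cox7c, a small subunit of the membrane core, had the highest fold of all members. It was at 13.6, 13.9, 13.01 and 14.6 CPM in C57BL/6J clean-air numbers 3 to 6 and 18.9 CPM in RNA_106, and in CAST/EiJ clean air it ran from 36.99 to 56.9 CPM with a median of 43.1 CPM. Every CAST/EiJ library was far above every C57BL/6J library (3.15-fold, log2 1.66 ± 0.14 (SE), adjusted p = 1.12e-09). Cox7a2, the widely expressed isoform of subunit 7a, was higher without overlap (114 ± 13.3 CPM (SD, n = 7) against 56.3 ± 13.2 CPM (SD, n = 5), 2.02-fold, log2 1.01 ± 0.11 (SE), adjusted p = 8.51e-08).

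Both lower members of complex IV were isoforms with a special role. Cox4i2 is the isoform of subunit 4 found mainly in lung, where it serves oxygen sensing in the pulmonary vessels. It was at 24.6, 28.5, 21.9 and 22.1 CPM in C57BL/6J clean-air numbers 3 to 6 and 28.3 CPM in RNA_106, and in CAST/EiJ it ran from 12.8 to 19.1 CPM with a median of 14 CPM. All CAST/EiJ libraries were below all C57BL/6J libraries (log2 -0.76 ± 0.10 (SE), adjusted p = 6.52e-07), while the common isoform Cox4i1 was higher (log2 0.54 ± 0.09). The ratio of Cox4i2 to Cox4i1 counts, which is not corrected for length and serves only to compare groups, was 0.175 ± 0.029 (SD, n = 5) in C57BL/6J and 0.072 ± 0.014 (SD, n = 7) in CAST/EiJ. Cox7a2l helps to join complexes III and IV into supercomplexes, and C57BL/6J is known to carry a short form of it that works poorly in this. Its RNA was at 92.2, 83.3, 88.4 and 102.8 CPM in C57BL/6J clean-air numbers 3 to 6 and 118 CPM in RNA_106, and in CAST/EiJ it ran from 46.3 to 86.04 CPM with a median of 61.3 CPM. It was lower in CAST/EiJ (log2 -0.68 ± 0.12 (SE), adjusted p = 3.15e-05) with overlap through RNA_101 alone.

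In complex V, 14 of 17 members were higher and 1 was lower. The rotor ring is encoded by Atp5g1, Atp5g2 and Atp5g3, which give the same mature c subunit, and all 3 were higher. Atp5g1 was at 18.7, 12.4, 21.7 and 19.9 CPM in C57BL/6J clean-air numbers 3 to 6 and 21.8 CPM in RNA_106, and in CAST/EiJ it ran from 37.1 to 60.1 CPM with a median of 45.6 CPM. Atp5g2 was at 12.5, 13.1, 11.6 and 14.5 CPM in C57BL/6J clean-air numbers 3 to 6 and 18.4 CPM in RNA_106, and in CAST/EiJ it ran from 26.98 to 35.1 CPM with a median of 32.5 CPM. Neither gene's strains overlapped (Atp5g1 2.45-fold, log2 1.29 ± 0.15 (SE), adjusted p = 1.23e-07; Atp5g2 2.21-fold, log2 1.15 ± 0.12 (SE), adjusted p = 3.5e-08). Atp5g3 differed less, by log2 0.45 ± 0.10. Atp5b, the catalytic beta subunit, was 692 ± 70.4 CPM (SD, n = 7) against 468 ± 53.01 CPM (SD, n = 5) (log2 0.56 ± 0.11). Atp5sl, counted here by its symbol and not as a subunit, was the lower member (12.1 ± 1.7 CPM (SD, n = 7) against 18.01 ± 2.38 CPM (SD, n = 5), log2 -0.57 ± 0.11, adjusted p = 6.77e-05).

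**Figure D1:**
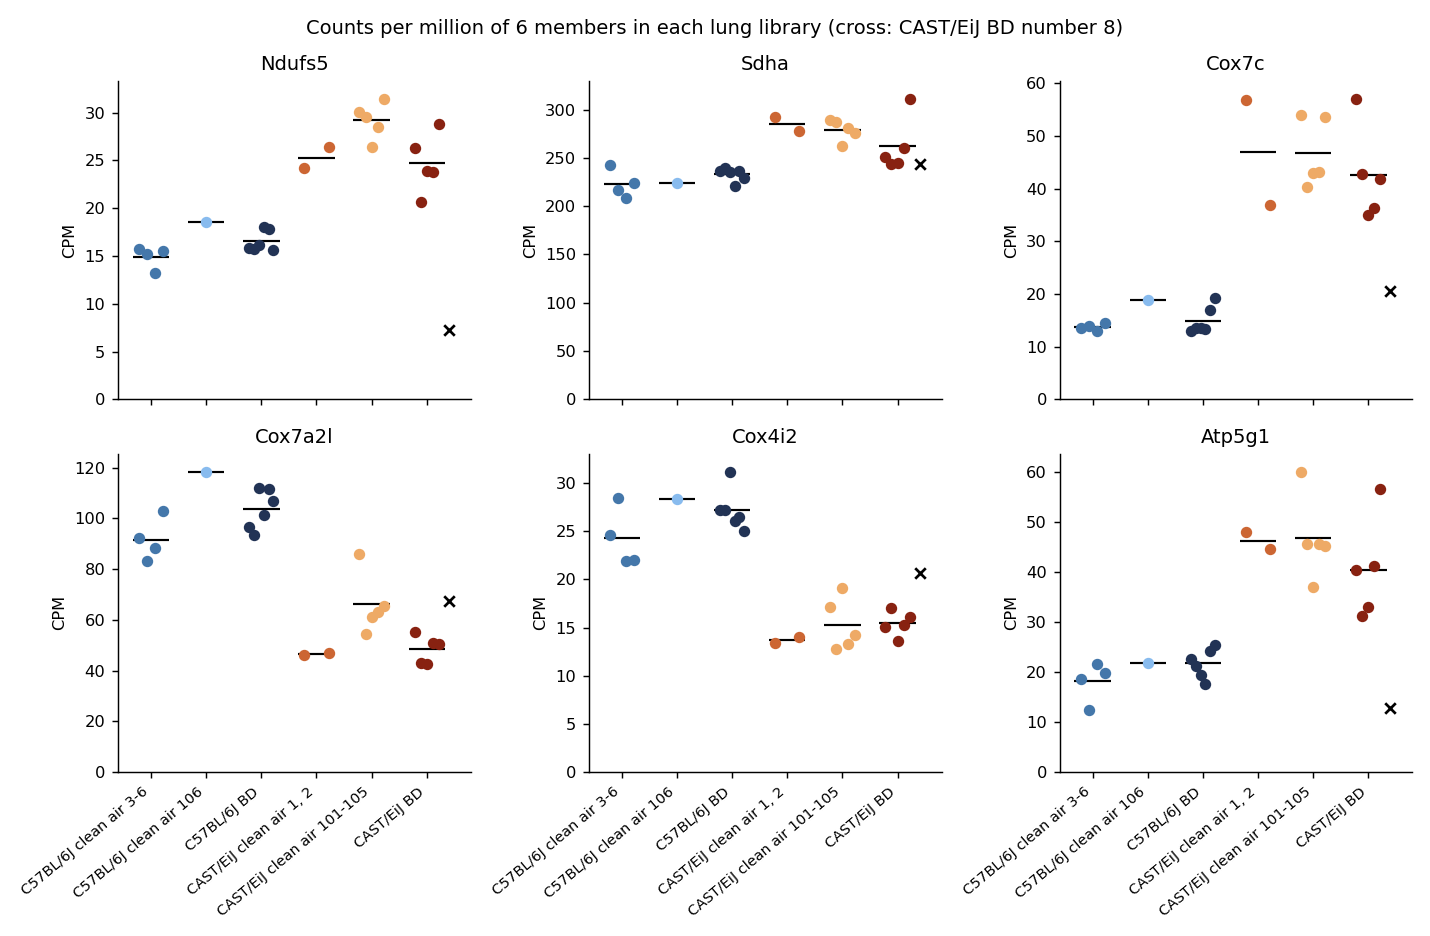
CPM (vertical axis, from 0) of Ndufs5, Sdha, Cox7c, Cox7a2l, Cox4i2 and Atp5g1 in each library (points) by group, with clean air split at title number 100, group means as lines and CAST/EiJ BD number 8 as a cross. Cox7c, Atp5g1 and Ndufs5 are higher and Cox7a2l and Cox4i2 lower in CAST/EiJ in both exposures, and number 8 (Cox7c 20.7, Ndufs5 7.21) lies outside the other CAST/EiJ BD libraries in every panel except Sdha.

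The clean-air libraries fall into number series that split unevenly between the strains, so the contrast was repeated with CAST/EiJ numbers 1 and 2 against C57BL/6J numbers 3 to 6. There 57 members were higher and 4 lower (23.2% and 19.7% of all genes), 67 had CPM ranges above and 4 below (28.9% and 28.8%), and the subunits' median was 0.49 (0.26 relative to the cytosolic ribosomal genes). Cox7c (log2 1.81 ± 0.19), Atp5g1 (1.38 ± 0.21), Ndufs5 (0.79 ± 0.11), Cox4i2 (-0.79 ± 0.15) and Cox7a2l (-0.94 ± 0.14) kept their direction and passed the test. Ndufaf7 did not pass in this contrast (log2 -0.07 ± 0.10, adjusted p = 0.583), and Ndufa4l2, a paralog of Ndufa4 known from pericytes and from hypoxia, was lower instead (log2 -0.53 ± 0.18, adjusted p = 0.0183). The count of lower members was 2 without number 1. Numbers 1 and 2 held 3434 and 2313 CPM of cardiac markers, against 761 to 2490 CPM in numbers 3 to 6. With the cardiac marker level as a covariate, 54 members were higher and 4 lower (22.4% and 18.6% of all genes). Whether CAST/EiJ reads align less well to the C57BL/6J-based genome, and how reads shared with processed pseudogenes were counted, was not tested.

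The promoter windows of a few of the named members are shown. Their part in the strain differences was not tested. RefSeq (GRCm38.p6) gave windows of 300 bases, 250 before and 50 after the start, for 75 of the 94 members. A form of the site of NRF1, a regulator of respiratory genes, reads GCGCA, then any base, then GCGC, and was found on either strand in 25.3% of members and in 5.19% of all genes with such a window. For CCGGAAG, an ETS-type site of GABPA (NRF2), the shares were 25.3% and 9.93%. For AAGATGGCG, a YY1 site, they were 9.33% and 1.64%, and for TNAAGGTCA, an ESRRA site, 4% and 1.43%. The NRF1 letters occurred in 46.2% of 13 complex V windows and in 7.14% of 14 complex IV windows. The lines below give 160 bases, 140 before and 20 after the start, 5′ to 3′ on the gene's strand, with any NRF1 or GABPA letters on either strand in capitals. They come from chr4:123718167-123718326 (minus strand) for Ndufs5, chr13:74350221-74350380 (minus strand) for Sdha, chr9:50603830-50603989 (minus strand) for Sdhd, chr9:108936508-108936667 (plus strand) for Uqcrc1, chr13:86046776-86046935 (minus strand) for Cox7c and chr15:102671028-102671187 (minus strand) for Atp5g2.
Ndufs5: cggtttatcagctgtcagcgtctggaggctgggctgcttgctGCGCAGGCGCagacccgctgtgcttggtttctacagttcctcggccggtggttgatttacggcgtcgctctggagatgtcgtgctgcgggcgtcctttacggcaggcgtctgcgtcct
Sdha: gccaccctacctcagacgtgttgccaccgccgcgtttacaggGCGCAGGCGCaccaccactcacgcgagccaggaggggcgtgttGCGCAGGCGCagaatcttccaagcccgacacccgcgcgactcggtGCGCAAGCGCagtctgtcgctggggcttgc
Sdhd: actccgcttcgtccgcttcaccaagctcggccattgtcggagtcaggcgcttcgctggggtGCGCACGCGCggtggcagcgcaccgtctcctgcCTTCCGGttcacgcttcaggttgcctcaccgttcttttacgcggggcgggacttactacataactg
Uqcrc1: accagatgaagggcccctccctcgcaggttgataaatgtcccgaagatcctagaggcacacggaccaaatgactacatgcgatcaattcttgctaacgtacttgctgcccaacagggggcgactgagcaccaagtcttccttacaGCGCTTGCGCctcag
Cox7c: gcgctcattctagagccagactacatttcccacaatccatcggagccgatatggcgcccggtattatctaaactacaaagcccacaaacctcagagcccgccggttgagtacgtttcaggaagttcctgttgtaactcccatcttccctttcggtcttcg
Atp5g2: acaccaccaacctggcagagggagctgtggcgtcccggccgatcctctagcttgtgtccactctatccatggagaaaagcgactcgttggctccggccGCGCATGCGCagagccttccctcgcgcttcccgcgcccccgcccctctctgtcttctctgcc
Sdha shows the NRF1 letters 3 times and Sdhd holds both motifs. Every window shown except that of Cox7c holds the NRF1 letters, against 25.3% of members, so these windows do not represent the members. In complex III, the complex of Uqcrc1, 1 of 5 windows held them. The shares of all genes cover 27025 genes, more than the 17377 tested in lung. Cox7c, which had the highest strain fold, has none of the 4 motifs in these 160 bases. A match is only a match of letters.

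The members outside these calls in clean air were 14 in number. In complex I they were the accessory subunits Ndufa6, Ndufa7 and Ndufab1, the last being the mitochondrial acyl carrier protein, and the assembly factors Ndufaf2 and Ndufaf3. Those of complex IV were Cox5b, Cox6a2, Cox6b2, Cox7a1, Cox8b and Ndufa4l2, of which Cox6b2 is a testis isoform and all but Cox5b are tissue-restricted. Uqcrb of complex III and Atp5d and Atp5s of complex V made up the rest. Cox5b was 36.9 ± 9.11 CPM (SD, n = 7) against 32.2 ± 7.05 CPM (SD, n = 5) (log2 0.19 ± 0.16, adjusted p = 0.337), and Ndufa4l2 was 9.11 ± 1.99 CPM (SD, n = 7) against 10.7 ± 1.82 CPM (SD, n = 5) (log2 -0.24 ± 0.14, adjusted p = 0.155).

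Most lists of genes around the complexes had more members higher than lower in CAST/EiJ in clean air (29.4% of all genes higher, 31% lower). Of 17 tricarboxylic acid cycle genes 14 were higher and 1 lower, of 15 genes for the outer membrane and protein import 13 were higher, and of 6 partners of the ATP synthase, such as its inhibitor Atpif1 and the ADP/ATP carriers, all 6 were higher. Mitochondrial ribosomal proteins had 53 of 76 higher and 4 lower. The 15 regulators of mitochondrial biogenesis had 3 higher and 3 lower, with a median of -0.07. Electron carriers and cytochrome c had 4 of 8 higher, and among further assembly factors 4 of 7 for complex I, 10 of 19 for complex IV and 5 of 8 for complexes III and V were higher, with 1 lower in each of the last 2 lists. Glycolysis had 8 of 15 higher and 1 lower, Gapdh, at log2 -3.00. Under BD (20.4% of all genes higher, 22.3% lower) the counts were 1 higher of 17 tricarboxylic acid cycle genes, 6 higher and 2 lower of 15 import genes, 4 higher of 6 ATP synthase partners, and 20 higher and 8 lower of 76 mitochondrial ribosomal proteins.

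Under BD fewer members were called between the strains, with 18 of 92 higher in CAST/EiJ, a share close to the 20.4% of all genes, and 5 lower, a share well under the 22.3% of all genes. The subunits' median was 0.11, and -0.02 relative to the cytosolic ribosomal genes. The BD contrast shares no library with the clean-air contrast. All 18 higher members were among the 74 of clean air (24.3% of those). Because 74 of 92 members were higher in clean air, most of any list of members would fall among them. No overlap share over all genes is given. Of the 5 lower members 4 were shared (80%, and all 4 of the clean-air list). Cox5b, a zinc-binding subunit of complex IV, was lower under BD without being called in clean air (log2 -0.52 ± 0.17 and 0.19 ± 0.16).

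The 5 members with the widest strain gap in clean air, Cox7c, Atp5g1, Atp5g2, Cox7a2 and Ndufc1, were also called higher under BD, each with a smaller log2 difference than in clean air. Cox7c was at 57.04, 42.9, 34.99, 36.4 and 41.9 CPM in CAST/EiJ numbers 7 and 9 to 12, and ran from 13.02 to 19.2 CPM with a median of 13.5 CPM in C57BL/6J. No library overlapped (2.86-fold, log2 1.52 ± 0.14 (SE), adjusted p = 4.83e-09). Atp5g1 was at 40.5, 31.3, 32.95, 41.2 and 56.7 CPM in CAST/EiJ and ran from 17.7 to 25.4 CPM with a median of 21.9 CPM in C57BL/6J, again apart (1.87-fold, log2 0.90 ± 0.15 (SE), adjusted p = 2.6e-05). Atp5g2 and Ndufs5 were higher by log2 0.79 ± 0.12 and 0.58 ± 0.09, while Atp5g3 did not pass (log2 0.05 ± 0.10).

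Cox7a2l was at 55.2, 43.1, 42.7, 51.05 and 50.6 CPM in CAST/EiJ after BD and ran from 93.5 to 112 CPM with a median of 104.1 CPM in C57BL/6J. Its ranges were apart under BD (log2 -1.09 ± 0.13 (SE), adjusted p = 1.85e-07). Cox4i2 was at 15.1, 17.1, 13.6, 15.2 and 16.1 CPM in CAST/EiJ and ran from 25.02 to 31.2 CPM with a median of 26.9 CPM in C57BL/6J, also apart (log2 -0.82 ± 0.10 (SE), adjusted p = 6.56e-07). Atp5sl and Ndufaf7 had log2 differences of -0.58 ± 0.11 and -0.34 ± 0.07, both called lower.

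Of complex II, Sdha and its flavination factor Sdhaf2 were called higher under BD, by log2 0.17 ± 0.06 and 0.32 ± 0.07. Sdha was at 251, 243, 245, 260.4 and 311 CPM in CAST/EiJ numbers 7 and 9 to 12 and ran from 221 to 240.0 CPM with a median of 236 CPM in C57BL/6J. The strains were apart by a small margin, with number 12 well above the rest (adjusted p = 0.0251). Sdhb, Sdhc and Sdhd did not pass (log2 0.11 ± 0.10, -0.09 ± 0.08 and 0.16 ± 0.10). Complex III had 1 member called, Uqcrc1 (log2 0.42 ± 0.10), whose ranges overlapped under BD. In number 8, Cox7c was at 20.7, Atp5g1 at 12.9, Ndufs5 at 7.21, Cox7a2l at 67.5 and Cox4i2 at 20.6 CPM, each outside the range of the 5 other CAST/EiJ BD libraries. Of these only Atp5g1 lay within the C57BL/6J clean-air range (12.4 to 21.8 CPM). Cox7c was above every C57BL/6J library, and Ndufs5, Cox7a2l and Cox4i2 were below every one. Cox7a2l lay within the CAST/EiJ clean-air range (46.3 to 86.04 CPM). Of 9 members with strain ranges apart, number 8 lay within the C57BL/6J range for 5 (55.6%) and the CAST/EiJ range for 1 (11.1%).

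**Figure D2:**
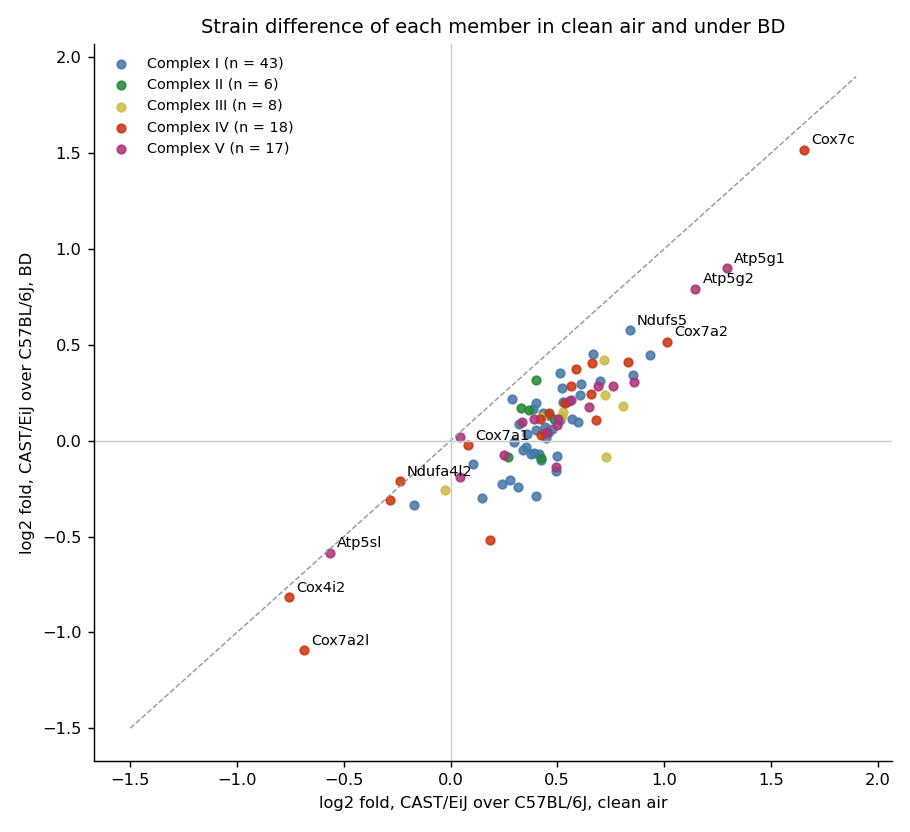
log2 fold of CAST/EiJ over C57BL/6J for each of the 92 members tested, in clean air (horizontal) and under BD (vertical), coloured by complex, with the line of equality dashed. Most points lie right of 0 and below the line, with Cox7c, Atp5g1 and Atp5g2 at the upper right and Cox7a2l, Cox4i2 and Atp5sl at the lower left; on a scale centred on cytosolic ribosomal genes the medians are 0.08 and -0.02.

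The second question was what BD did in each strain. In C57BL/6J no member was called against all 5 clean-air libraries by edgeR (0 of 92, against 4.2% of all genes higher and 6.49% lower). DESeq2 called 1 higher (4.05% of all genes higher, 5.62% lower). At an unadjusted p under 0.05 edgeR gave 7 members higher and 0 lower, a cutoff for which no share over all genes is given. By edgeR 81 of 92 had a log2 difference above 0, with a subunit median of 0.12 and a median over all genes of -0.002. The CPM ranges were apart for 1 member, Sdhaf2, which was above (3.79% of all genes above, 4.13% below). Sdhc had an adjusted p of 0.0684 (log2 0.23 ± 0.08). The count was 7 higher without RNA_106 and 1 without number 12. Among cell markers in the same contrast, 1 of 5 alveolar type 2 (Sftpc log2 0.43) and 1 of 5 macrophage markers (Marco 1.63) were called higher. All 4 B cell, 2 of 4 T cell, 2 of 4 endothelial and 1 of 8 smooth muscle and pericyte markers were called lower. Their part in the members' values was not tested.

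Against clean-air numbers 3 to 6 alone, 16 members were higher after BD and 0 lower (8.14% of all genes higher, 8.85% lower), with a subunit median of 0.23 (0.11 relative to the cytosolic ribosomal genes). The 16 were 7 of complex I, 1 of complex II, 2 of complex III, 3 of complex IV and 3 of complex V. Alveolar type 2 markers summed to 13360 to 14949 CPM in numbers 3 to 6, 16697 CPM in RNA_106 and 16410 to 20340 CPM after BD. The part of this shift in the members' values was not tested. Atp5f1, a subunit of the stator stalk of the ATP synthase, was at 89.9, 84.96, 95.4 and 102.2 CPM in numbers 3 to 6 and ran from 101.4 to 125 CPM with a median of 109.8 CPM after BD. Its ranges overlapped slightly (1.21-fold, log2 0.28 ± 0.07 (SE), adjusted p = 0.0083), and RNA_106 stood at 121 CPM, within the BD range.

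Ndufs6, an accessory subunit with a zinc site, was at 17.5, 13.6, 17.2 and 16.7 CPM and ran from 20.1 to 23.9 CPM with a median of 20.97 CPM after BD, without overlap (1.33-fold, log2 0.42 ± 0.10 (SE), adjusted p = 0.00915). Ndufa4 of complex IV was at 82.2, 55.8, 72.5 and 81.05 CPM and ran from 85.5 to 116 CPM with a median of 96.8 CPM (1.35-fold, log2 0.43 ± 0.11 (SE), adjusted p = 0.0124). Sdhc was at 59.4, 49.7, 51.9 and 55.4 CPM and ran from 59.97 to 74.5 CPM with a median of 65.2 CPM (1.22-fold, log2 0.29 ± 0.08 (SE), adjusted p = 0.021). All 3 had the BD libraries above these 4 clean-air libraries, as had 15 members in all, with 0 below (6.89% and 8.29% of all genes). In RNA_106, Ndufs6 stood at 24.5 CPM, above all BD libraries, and Ndufa4 at 111 CPM, within their range. The count of 16 was 1 without number 4, 6 without 5, 10 without 16, 7 without 17 and 9 without 18. It was 9 with number 8 kept in the fit (5.45% of all genes higher). With the cardiac marker level as a covariate, chosen after the values were seen, it was 44 (9.05%).

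In CAST/EiJ 11 members were lower after BD and 0 higher than in the 7 clean-air libraries (3.37% of all genes lower, 3.86% higher). DESeq2 called 22 lower and 0 higher (4.88% and 4.62% of all genes). At an unadjusted p under 0.05 edgeR gave 57 lower and 1 higher, again with no share over all genes given. The subunits' median was -0.25 with 89 of 92 members below 0, and the median over all genes was -0.018. Cytosolic ribosomal genes, however, were lower by 0.29, and relative to them the subunits' median turned to 0.04 (0.01 to 0.17 by complex). Of the 11, 8 belonged to complex I, 2 to complex V (Atp5l and Atp5j) and 1 to complex IV (Cox7a2). Complex II had 0, with a median of -0.12 over its 4 subunits. Of 76 mitochondrial ribosomal proteins 7 were lower and 0 higher, of 76 cytosolic ones 13 were lower, and of 17 tricarboxylic acid cycle genes 0 were called. All 3 club cell markers were lower in the same contrast (Scgb3a2 log2 -1.51, Scgb1a1 -0.64 and Cyp2f2 -0.45), summing to 7946 to 11018 CPM in clean air and 4049 to 7635 CPM after BD, as were 4 of 8 smooth muscle and pericyte markers (Cnn1 -0.98, Tagln -0.55), while 0 of 5 alveolar type 2 markers and 0 of 9 cardiac markers were called by edgeR. Their part in the members' values was not tested.

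Ndufc2, an accessory subunit of the complex I membrane arm, ran from 41.9 to 65.1 CPM with a median of 55.02 CPM in clean air and was at 41.7, 41.2, 35.8, 33.9 and 39.98 CPM in BD numbers 7 and 9 to 12. All 5 BD libraries were below all 7 clean-air libraries (log2 -0.52 ± 0.13 (SE), adjusted p = 0.0246). Ndufb6 ran from 33.7 to 48.6 CPM with a median of 41.9 CPM in clean air and was at 32.8, 30.96, 27.3, 31.3 and 33.4 CPM after BD, narrowly apart (log2 -0.40 ± 0.11 (SE), adjusted p = 0.0306). Ndufc1 was also apart (log2 -0.42 ± 0.11), and so were 6 members in all, all below (0.84% of all genes below, 1.23% above). Atp5l, subunit g of the ATP synthase, ran from 31.2 to 53.6 CPM with a median of 38.3 CPM and was at 31.4, 29.1, 26.6, 28.4 and 29.6 CPM, with overlap through numbers 1 and 7 (log2 -0.45 ± 0.12 (SE), adjusted p = 0.0315). Cox7a2 fell from 114 ± 13.3 CPM (SD, n = 7) to 88.4 ± 8.74 CPM (SD, n = 5) (log2 -0.37 ± 0.11, adjusted p = 0.0476).

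The calls depended on which clean-air libraries were used. Against clean-air numbers 1 and 2, 1 member was lower, Cox5a, and 0 were higher (3.63% and 0.473% of all genes). The subunit median was -0.15 with 76 of 92 members below 0, and the median over all genes was -0.005. Relative to the cytosolic ribosomal genes, whose median here was 0.02, the subunits' median stayed below 0, at -0.17 (-0.19 to -0.17 by complex). CPM ranges were below for 9 members and above for 1 (8.97% and 6.49% of all genes). Cox5a, which binds a thyroid hormone metabolite, was at 58.3 and 48.4 CPM in numbers 1 and 2 and at 41.1, 36.2, 34.3, 36.4 and 47.05 CPM after BD, below both (log2 -0.46 ± 0.11 (SE), adjusted p = 0.0206), and RNA_101 to RNA_105 ran from 41.7 to 49.4 CPM. Ndufc2 in numbers 1 and 2 was at 44.2 and 41.9 CPM, close to its BD level (log2 -0.17 ± 0.13, adjusted p = 0.667). With the cardiac marker level as a covariate the subunits' median against numbers 1 and 2 was 0.01. EdgeR then called 0 members (2.34% of all genes lower, 0.304% higher). The summed cardiac markers were 2313 and 3434 CPM in numbers 1 and 2, 385 to 685 CPM in BD numbers 9 to 11, and 1765 and 3715 CPM in BD numbers 7 and 12. Against all clean air the count of 11 moved by more than 1.5 times when any one of numbers 1, 2, 6, 7, 9 to 16 or RNA_101 to RNA_106 was left out (0 to 30), and against numbers 1 and 2 the count was 0 without number 1, 2 or 9 and 2 without number 12 or 17. Against all clean air it was 33 with number 8 kept (6.36% of all genes lower) and 0 with a term for numbers over 100 (1.19%).

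**Figure D3:**
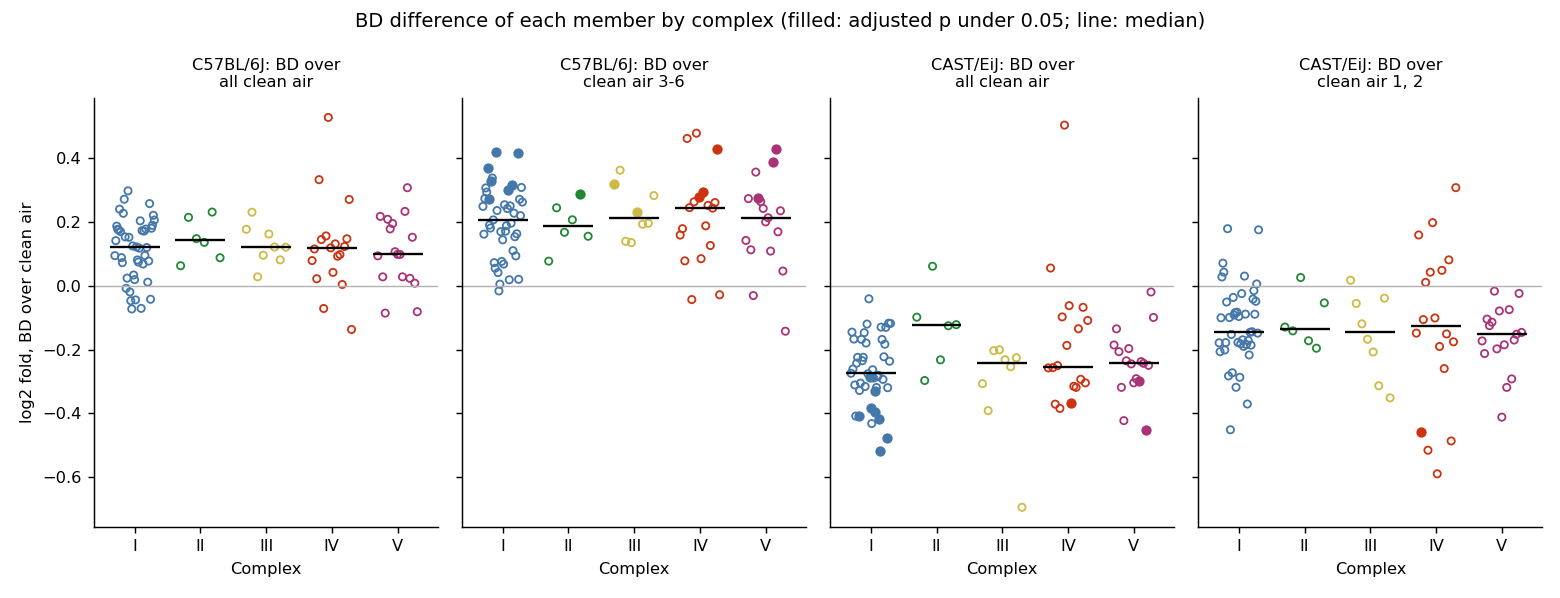
log2 fold of BD over clean air (vertical) for each member by complex (horizontal), in C57BL/6J and CAST/EiJ, against all clean-air libraries and against the libraries numbered under 100; filled points passed the test and lines are medians. C57BL/6J points lie mostly above 0, with 0 and 16 called, and CAST/EiJ points mostly below 0, with 11 and 1 called; relative to cytosolic ribosomal genes the CAST/EiJ median against all clean air is 0.04.

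The difference between the strains in their BD response was tested as an interaction. It was lower in CAST/EiJ for 11 members and higher for 0 by edgeR (3.82% and 5.62% of all genes). DESeq2 called 28 lower and 0 higher (4.84% and 5.67% of all genes). An unadjusted p under 0.05 by edgeR gave 59 and 0, with no share over all genes given. The subunits' median was -0.39 (-0.07 relative to the cytosolic ribosomal genes, where complexes II and IV turned to 0.03 and 0.00). The 11 were Ndufc2, Uqcrc2, Ndufb9, Ndufa3, Ndufa2, Ndufb6, Atp5f1, Ndufs8, Ndufa4, Ndufa9 and Sdhc. Ndufc2 had the smallest p: it ran from 39.8 to 52.3 CPM with a median of 48.7 CPM in C57BL/6J after BD, from 31.6 to 47.4 CPM in numbers 3 to 6, and was at 55.9 CPM in RNA_106 (log2 ratio of the 2 BD folds -0.69 ± 0.19, adjusted p = 0.0284). Uqcrc2 was 112 ± 12.8 CPM (SD, n = 5) and 126 ± 8.84 CPM (SD, n = 6) in C57BL/6J in clean air and after BD, and 161 ± 9.59 CPM (SD, n = 7) and 137 ± 17.4 CPM (SD, n = 5) in CAST/EiJ (log2 ratio -0.39 ± 0.11, adjusted p = 0.0327). Ndufb9 followed (log2 ratio -0.45 ± 0.13, adjusted p = 0.0357).

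Against clean-air numbers under 100 in both strains, 1 member passed the interaction test, Atp5g3 (log2 ratio -0.61 ± 0.15, adjusted p = 0.0377). The shares of all genes were 1.64% lower and 0.913% higher. Below 0 were 91 of 92 members. The median was -0.039 over all genes and -0.36 over the subunits. Relative to the cytosolic ribosomal genes that median was -0.27 (-0.31 to -0.21 by complex), further from 0 than over all clean air. The count of 11 moved by more than 1.5 times without any one of numbers 1 to 7, 9 to 12, 15 to 18, RNA_101, RNA_102 or RNA_104 to RNA_106 (0 to 49). It was 23 with number 8 kept (4.59% of all genes lower). The count of 1 moved without any one of numbers 1 to 7, 10 to 14, 16, 17, RNA_101 or RNA_103, between 0 and 16, and was 16 without number 12.

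The number series itself was compared within clean air. In CAST/EiJ, 16 members were higher in RNA_101 to RNA_105 than in 1 and 2 and 0 were lower (7.77% and 11.7% of all genes). The subunits' median was 0.15, below the 0.43 of the cytosolic ribosomal genes, of which 60 of 76 were higher, so that relative to them it was -0.29. CPM ranges were above for 26 members and below for 1 (16.3% and 19% of all genes). Complex I had 9 of the 16, complex IV 4, complex V 2, complex III 1 and complex II 0 (median 0.02). Ndufa7, an accessory subunit, was at 40.9 and 46.8 CPM in numbers 1 and 2 and at 91.8, 60.6, 61.98, 71.2 and 66.3 CPM in RNA_101 to RNA_105, with RNA_101 far above the rest (1.59-fold, log2 0.67 ± 0.14 (SE), adjusted p = 0.00248). Cox7a2l was at 46.3 and 46.96 CPM and at 86.04, 54.4, 61.3, 63.1 and 65.6 CPM, again highest in RNA_101 (1.40-fold, log2 0.48 ± 0.13 (SE), adjusted p = 0.014). RNA_101 and RNA_102 held the most skeletal muscle (2456 and 2192 CPM) and squamous epithelium markers (2119 and 1963 CPM) of the clean-air libraries. Both genes were lowest in RNA_102 among RNA_101 to RNA_105. In this contrast 4 of 5 alveolar type 2, 3 of 5 macrophage and 2 of 4 endothelial markers were called higher. Lower were 2 of 9 cardiac, 1 of 6 brown fat and 1 of 4 ciliated cell markers. Of 8 smooth muscle and pericyte markers 1 was higher and 2 lower, and 0 skeletal muscle or squamous markers were called. Their part was not tested. Cox7c, Atp5g1 and Sdha did not pass (log2 -0.02 ± 0.18, -0.00 ± 0.21 and -0.04 ± 0.08). The count of lower members was 1 without number 12. The count of higher members was 0 without number 1 and 5 without number 2. It was 8 with number 8 kept (4.92% of all genes higher) and 31 with the cardiac marker level as a covariate (5.55%).

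In C57BL/6J the series over 100 is 1 library, RNA_106, taken to vary like the other groups, so the test compares that library and not the series. It had 2 members higher than numbers 3 to 6, Cox7a2 and Cox6c, and 0 lower (0.598% and 0.658% of all genes), with 90 of 92 members above 0 and a subunit median of 0.38 (-0.09 relative to the cytosolic ribosomal genes). It lay above all 4 libraries for 76 members and below for 2 (28.7% and 29.8% of all genes). Cox7a2 was at 53.7, 45.4, 46.05 and 58.3 CPM in numbers 3 to 6 and 77.8 CPM in RNA_106, and Cox6c at 94.4, 68.98, 76.3 and 89.4 CPM and 126 CPM. The count lay between 0 and 5 when one library was left out, and moved without number 1, 2, 4, 5, 11, 12, 13, 14, 16, RNA_102 or RNA_104. RNA_106 held 1582 CPM of squamous and basal epithelium markers, against 3.4 to 6.15 CPM in numbers 3 to 6, and their part in these values was not tested.

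The complexes were also summarised in each library, with no test. The level of a complex was taken as the median, over its subunits, of the log2 CPM difference from the median of C57BL/6J numbers 3 to 6. For all 80 subunits it was -0.13 to 0.10 in those 4 libraries, 0.36 in RNA_106, and 0.14 to 0.37 after BD in C57BL/6J. In CAST/EiJ it was 0.43 and 0.46 in numbers 1 and 2, 0.48 to 0.76 in RNA_101 to RNA_105, and 0.41, 0.12, 0.19, 0.26 and 0.56 in BD numbers 7 and 9 to 12. Number 8 was at 0.07, within the range of C57BL/6J numbers 3 to 6, while all genes together stayed between -0.05 and 0.02 in every library. Number 12 lay within the range of the CAST/EiJ clean-air libraries, number 7 just below it, and numbers 9 to 11 further below. Numbers 7 and 12 held 1765 and 3715 CPM of cardiac markers, against 385 to 685 CPM in numbers 9 to 11. The part of muscle RNA in these levels was not tested.

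**Figure D4:**
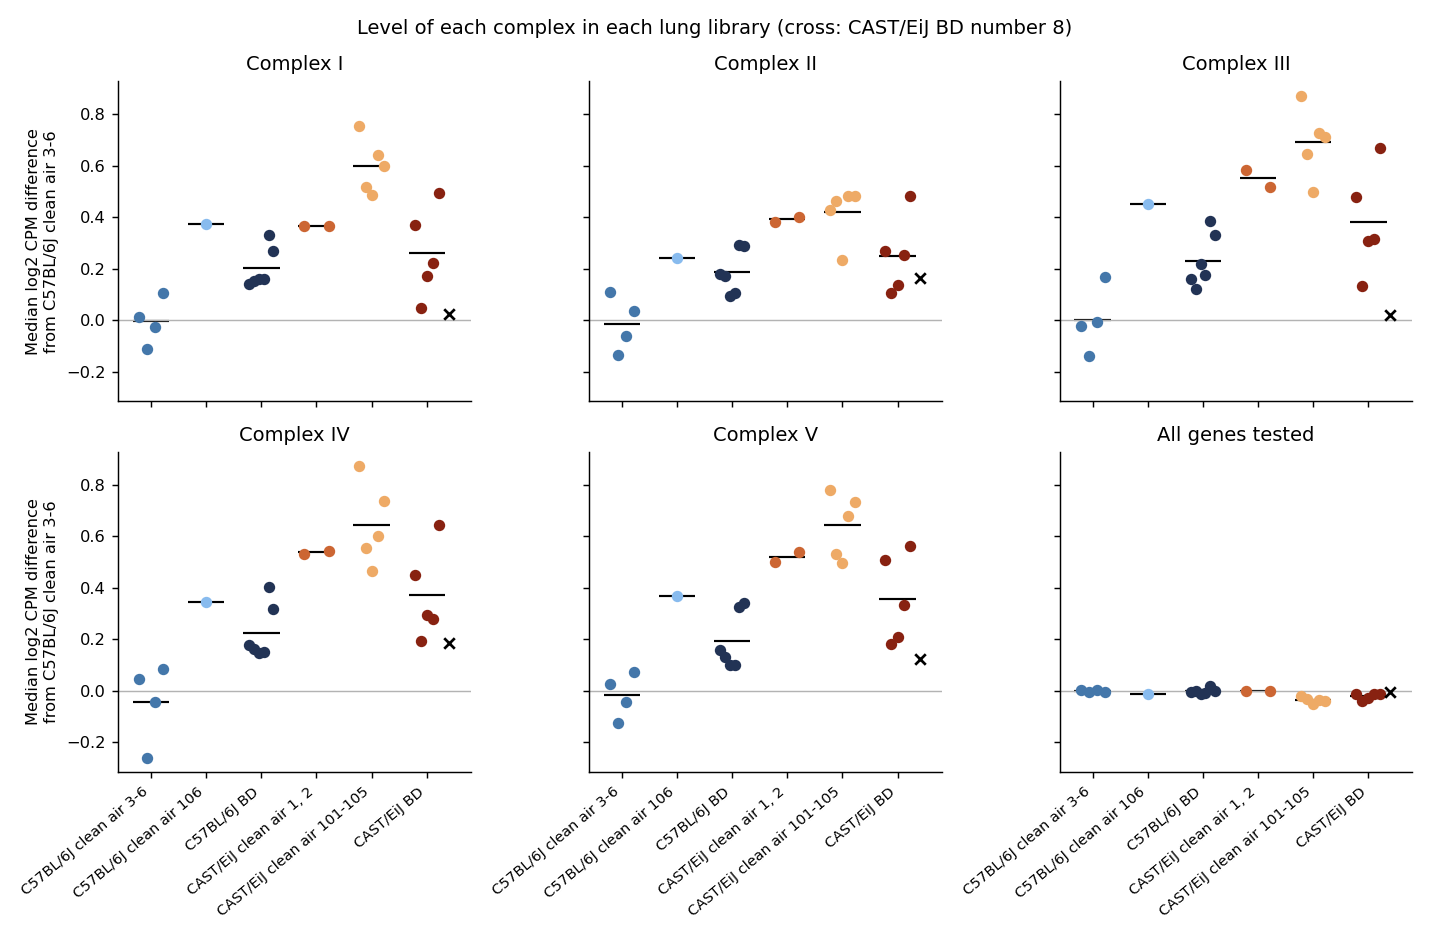
Level of each complex in each library, as the median log2 CPM difference from C57BL/6J clean-air numbers 3 to 6 (vertical axis), with 1 point per library, group means as lines, number 8 as a cross and all genes tested in the last panel. The mean of C57BL/6J clean-air numbers 3 to 6 is the lowest in each complex and that of CAST/EiJ RNA_101 to RNA_105 the highest (relative to cytosolic ribosomal genes, RNA_101 to RNA_105 are 0.29 below numbers 1 and 2), and the CAST/EiJ BD libraries spread from near the C57BL/6J BD level to the clean-air level.

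The muscle isoforms of complex IV varied widely between libraries of a group. Cox6a2, Cox7a1 and Cox8b, which replace Cox6a1, Cox7a2 and Cox8a in heart and skeletal muscle, did not pass the 2 strain tests or the 2 BD tests over all clean air (adjusted p from 0.167 to 0.974, edgeR). Cox8b was at 12.9, 1.23, 2.44, 5.24 and 13.8 CPM in CAST/EiJ BD numbers 7 and 9 to 12, high in 7 and 12 and low in 9 to 11. Cox7a1 was at 11.2, 2.93, 3.86, 5.64 and 15.9 CPM in the same libraries, with the same order of the 2 sets. Cox6a2 did not keep that order by CPM. It ran from 5.04 to 22.2 CPM with a median of 9.87 CPM, and number 10 stood slightly above number 7. The ratio of Cox6a2 to Cox6a1 counts did keep it, at 0.206, 0.0931, 0.173, 0.146 and 0.377 in numbers 7 and 9 to 12. Cox7a1 was at 6.37, 3.31, 7.6 and 13.1 CPM in C57BL/6J clean-air numbers 3 to 6 and 8.79 CPM in RNA_106, highest in number 6, which held 2490 CPM of cardiac markers. Over the 23 libraries the ratio of Cox7a1 to Cox7a2 counts ran from 0.0341 to 0.225, that of Cox8b to Cox8a from 0.0186 to 0.186, and that of Cox6a2 to Cox6a1 from 0.0931 to 0.377. The common isoforms Cox6a1 and Cox8a had strain differences in clean air of log2 0.42 ± 0.10 and 0.66 ± 0.14 (adjusted p = 0.00107 and 0.00033).

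**Figure D5:**
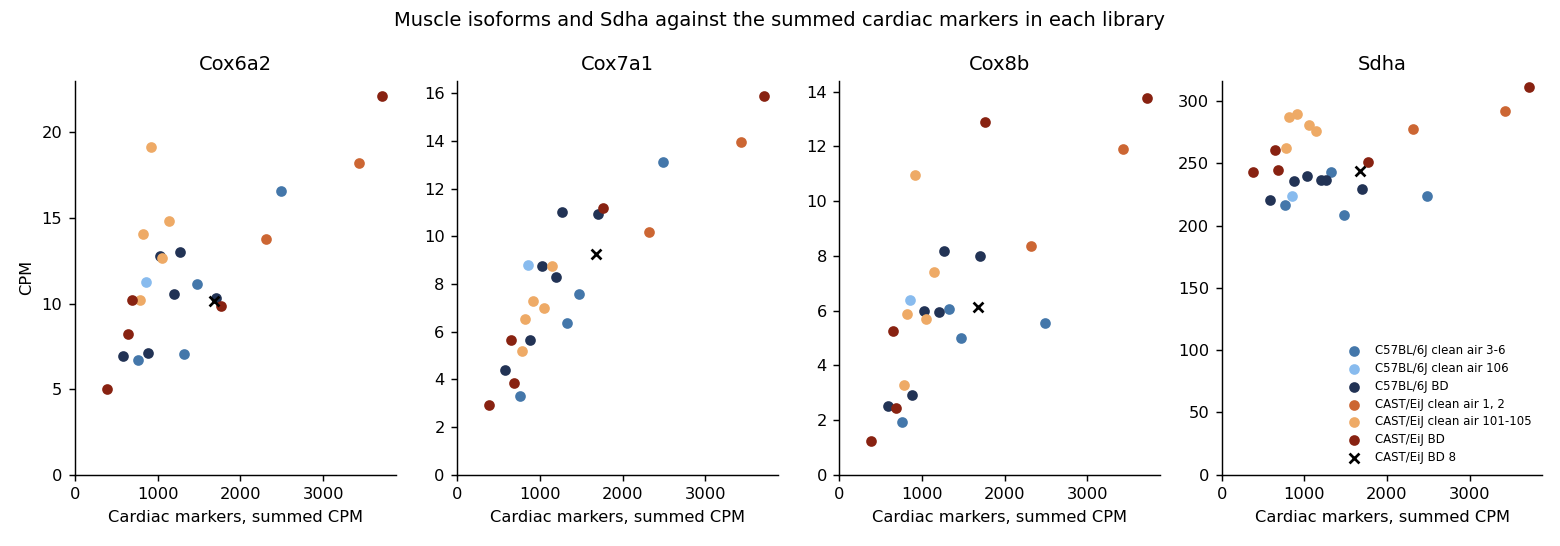
CPM of Cox6a2, Cox7a1, Cox8b and Sdha (vertical axes, from 0) against the summed CPM of 9 cardiac muscle markers (horizontal axis) in each library, coloured by group, with number 8 as a cross. Each muscle isoform is highest in CAST/EiJ BD number 12, which holds the most cardiac marker RNA (3715 CPM), while Sdha reaches 311 CPM there and separates by strain in clean air.

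The other isoform pairs had lower mean ratios in CAST/EiJ in both exposures. The Cox7a1 to Cox7a2 ratio also had lower medians there. They were 0.119 and 0.151 in C57BL/6J in clean air and after BD, and 0.0604 and 0.0658 in CAST/EiJ, with overlapping ranges. The ratio of Ndufa4l2 to Ndufa4 was 0.137 ± 0.030 (SD, n = 5) and 0.101 ± 0.017 (SD, n = 6) in C57BL/6J in clean air and after BD, and 0.070 ± 0.013 (SD, n = 7) and 0.081 ± 0.011 (SD, n = 5) in CAST/EiJ. Its ranges overlapped under BD (0.0848 to 0.129 in C57BL/6J, 0.0682 to 0.0985 in CAST/EiJ). The ratio of Cox4i2 to Cox4i1 was 0.179 ± 0.024 (SD, n = 6) in C57BL/6J and 0.089 ± 0.014 (SD, n = 5) in CAST/EiJ after BD. Neither Cox4i2 nor Ndufa4l2 passed the BD test in a strain (Cox4i2 log2 0.12 ± 0.10 and 0.06 ± 0.10, Ndufa4l2 -0.14 ± 0.15 and -0.11 ± 0.14, in C57BL/6J and CAST/EiJ).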

How the data were processed

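The authors deposited whole-number counts per gene for 24 RNA-seq libraries of the 68 samples of the series. Reads were aligned with GSNAP to mm9, per the submitters' processing notes; the counter, annotation and strand setting are not given in the sources used here. The table holds 23893 entries, of which 21 lack a value in some library and were left out. The chromatin accessibility and small RNA samples were not used here.

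Groups follow the titles. CAST/EiJ BD number 8 was left out, which left 23 libraries. Counts were fitted in R 4.3.3 with edgeR 4.0.16 (limma 3.58.1 underneath) after filterByExpr and TMM scaling, with the robust quasi-likelihood test and Benjamini-Hochberg adjustment over all genes tested (17377 with 4 groups, 18401 with 6 groups that split clean air at title number 100); a gene was called at an adjusted p under 0.05. Log2 differences and their SE come from that fit; the complex level of a library uses log2 CPM with a prior count of 2. The scripts were tested on simulated data. No 2 libraries of a group agreed within sampling noise. Library totals were 10597990 to 50001571 counts, and low members in the shallowest libraries carry the most counting error.

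Named members are, per comparison and complex, the called member with the smallest p in each direction at a mean of 10 CPM or more, the tissue isoform pairs, Sdha to Sdhd and the 3 smallest interaction p-values; others were chosen after their values were seen. The members and lists were chosen with earlier results of these data known. Alternatives were median-of-ratios scaling, no low-count filter, DESeq2 1.42.0, number 8 kept, only the compared groups, the number series as a covariate or left out, each library left out in turn, ribosomal scaling, and, chosen after seeing the data, muscle marker levels as covariates.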

Additional observations from a re-analysis of the deposited data

Results flagged for a closer look

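Of 76 groups of values tested for a library that stands apart, 4 were marked, where chance marks about 1 in 20. Cox4i2 stood at 31.2 CPM in C57BL/6J BD number 15, with the other 5 libraries at 25.0 to 27.2 CPM. Cox6a1 stood at 63.3 CPM in C57BL/6J BD number 17, against 50.8 to 53.5 CPM. Sdha stood at 311 CPM in CAST/EiJ BD number 12, against 243 to 260 CPM, and that library held 3715 CPM of cardiac markers. The complex II level of CAST/EiJ RNA_103 of clean air was 0.23, below the 0.38 to 0.48 of the other 6 libraries.

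Over all clean air 11 members passed the interaction test as lower in CAST/EiJ and 0 as higher (edgeR, adjusted p under 0.05). The shares of all genes were 3.82% and 5.62%. Against clean-air numbers under 100 only Atp5g3 passed, which is not among the 11. The count of 11 became 0 with the number series as a covariate, and ran from 0 to 49 when one library was left out. For each member the log2 ratio of the BD folds of CAST/EiJ and C57BL/6J is given. In complex I it was -0.69 for Ndufc2 (adjusted p = 0.0284), -0.65 for Ndufa2 (0.0381), -0.51 for Ndufb6 (0.0394), -0.50 for Ndufs8 (0.0427), -0.45 for Ndufb9 (0.0357), -0.41 for Ndufa3 (0.0378) and -0.32 for Ndufa9 (0.0451). In the other complexes it was -0.36 for Sdhc (0.0472), -0.39 for Uqcrc2 (0.0327), -0.58 for Ndufa4 (0.0444) and -0.41 for Atp5f1 (0.0404).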

How the results depend on the processing

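The counts of members called were the same, within 1.5 times, in 117 of 148 alternatives other than leaving out a library; of the named members' values 1818 kept their side of the threshold and 223 lost the call. For BD in C57BL/6J the count of higher members was 0 (4.2% of all genes higher). It was 1 with DESeq2 (4.05%), 2 with only the compared groups (6.13%) and 3 with the cardiac covariate (4.56%). With the number series as a covariate it was 13 (8.93%), and with numbers over 100 left out 14 (7.72%). For BD in CAST/EiJ the count of lower members was 11 (3.37% of all genes lower). It was 4 without the filter (1.29%), 22 with DESeq2 (4.88%) and 33 with number 8 kept (6.36%). With only the compared groups it was 2 (0.421%), and with the number covariate 0 (1.19%). With numbers over 100 left out it was 1 (3.03%), and with the skeletal muscle covariate 7 (2.84%). For the interaction the count of lower members was 11 (3.82% of all genes lower). It was 3 without the filter (1.6%), 28 with DESeq2 (4.84%) and 23 with number 8 kept (4.59%). With the number covariate it was 0 (0.236%), with numbers over 100 left out 0 (1.12%) and with the cardiac covariate 23 (4.42%). The strain contrast under BD had 8 lower with numbers over 100 left out (25.1% of all genes lower), against 5 (22.3%). With clean air split, the cardiac covariate gave 44 higher for BD against numbers 3 to 6 (main 16; 9 with number 8 kept), 0 lower for BD against numbers 1 and 2 (main 1), 31 higher and 1 lower for RNA_101 to RNA_105 (main 16 and 0; 8 higher with number 8 kept), 14 higher for RNA_106 (main 2; 12 with DESeq2, 0 with number 8 kept) and 0 lower for the interaction (main 1; 7 with DESeq2, 0 with number 8 kept). Leaving out one library in turn gave 69 to 77 higher and 3 to 4 lower for strain in clean air, 13 to 22 and 4 to 6 under BD, and 41 to 61 and 2 to 4 for numbers 1 and 2 against 3 to 6; the BD counts ranged from 0 to 7 higher in C57BL/6J, 1 to 24 against numbers 3 to 6, 0 to 30 lower in CAST/EiJ and 0 to 2 against numbers 1 and 2, the interaction from 0 to 49 and 0 to 16, RNA_106 from 0 to 5, and RNA_101 to RNA_105 from 0 to 18 higher and 0 to 1 lower. The cause was not tested, and shares over all genes were not computed with a library left out. No share over all genes is given beside the alternative counts for RNA_106 and for the interaction with clean air split. Those counts alone do not show whether the members moved more than all genes did. Scaling to cytosolic ribosomal genes, a description, turned the sign of the subunits' median for BD in CAST/EiJ against all clean air (0.04, but -0.17 against numbers 1 and 2), strain under BD (-0.02) and both number series (-0.29 and -0.09), and of complex II for strain in clean air (-0.05) and for the interaction (0.03, with complex IV at 0.00). The fit of only the compared groups was not run for the interaction and the split comparisons, and the RNA_106 contrast has no value without that library. Muscle covariates were chosen after seeing the data. No paired analysis was possible because no groups compared share a title number. Members under 10 CPM have the widest errors.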
